A study of Mus musculus with 4 samples.

Results

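The heat shock protein 70 (HSP70) family was followed through 10 genes, taken by symbol from an RNA-sequencing table of 24388 gene symbols. Hspa2, Hspa1l and Hspa4l are the members known for high or selective expression in the testis. Hspa1a and Hspa1b are the stress-induced pair, and Hspa8, Hspa5, Hspa9, Hspa4 and Hspa14 are constitutive. Of the 10 genes, 9 reached 1 RPKM in at least 2 of the 4 libraries and were tested, and Hspa1l stayed below that level. The libraries were made from spermatocyte suspensions of C57BL/6 mice, 2 from an Np95 knockout and 2 from controls labelled only as control. The column headers name the knockout Np95cKO, read here as conditional knockout, and the cells in which Np95 was deleted are not given. Np95, gene symbol Uhrf1, recognises hemimethylated DNA and brings the maintenance methyltransferase to it, and the study addressed how methylation maintained before meiosis bears on meiotic prophase. The age label of every library reads 21 dpc, with the abbreviation not spelled out, and the labels give neither the deleted part of Np95 nor the driver of a Cre. Tubules of both groups were minced, digested with accutase and strained. No sorting step is described, so other cells of the testis can be present.

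HSP70 proteins hold unfolded stretches of other proteins in a cycle driven by ATP. J-domain proteins (Dnaj genes) start the cycle and nucleotide exchange factors (Bag genes, Hspbp1 and the HSP110 relatives Hspa4, Hspa4l and Hsph1) reset it. The members divide by compartment and by control: Hspa8 works in the cytosol of every cell, Hspa5 (BiP) in the endoplasmic reticulum (ER), Hspa9 (mortalin) in mitochondria, and Hspa1a and Hspa1b are switched on by heat shock factor 1. In the mouse testis the cytosolic member of meiotic prophase is Hspa2, which the synaptonemal complex needs to come apart and Cdk1 needs to pair with cyclin B1, and males without it are infertile.

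Values are RPKM, read numbers divided by gene length and library depth, for which the authors had used the whole gene span, introns included. Libraries can thus be compared gene by gene, while the levels of the HSP70 genes are ordered, and their shares given, only after rescaling to transcript length. Ranks, ratios between members and the choice of the most abundant markers rest on the deposited values per gene span and depend on intron content. The smallest spacing between values, called a step here, corresponded to about 22200000 and 9640000 steps per knockout library and 11600000 and 25600000 steps per control library, so knockout replicate 2 and control replicate 1 were the least precise for low genes. A log2 fold change is knockout over control after adding 1 to the RPKM, which shrinks the differences of low genes, whereas a fold divides the mean RPKM of the groups. Calls rest on limma with Benjamini-Hochberg adjustment at 0.05 over 9099 tested genes, since an exact permutation test of 2 against 2 libraries cannot go below p = 0.33. Uhrf1 itself had 1.87 and 1.48 RPKM in the knockout libraries and 3.11 and 3.29 RPKM in the control libraries (limma adjusted p = 0.0031). Since the deleted part is not given, that difference checks the labels only in part. Over genes, which are not independent replicates, the log2 values correlated at r = 0.977 within the knockout pair, at 0.993 within the control pair and at 0.79 to 0.884 from one group to the other. The labels do not tie the libraries to different animals, and the p-values then reflect only how far these particular libraries vary, possibly for technical reasons.

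The HSP70 genes moved apart in the knockout suspensions. Hspa2 and Hspa4l, the testis members that could be tested, fell 1.8-fold and 1.58-fold, with the sign of Hspa2 turning to a log2 difference of 0.05 under quantile normalisation. Hspa1a and Hspa1b rose 6.05-fold and 6.32-fold, Hspa8 rose 2.24-fold, and Hspa14 passed the threshold narrowly at 1.23-fold. Hspa5, Hspa9 and Hspa4 did not pass it. In all, 4 of the 9 tested members were called higher, 2 lower and 3 neither, with a median log2 fold change of 0.21.

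These counts sit in a comparison in which most genes were called. Over all tested genes 43.3% were called higher (3943 genes) and 30.5% lower (2776 genes), 73.8% in either direction, with a median log2 fold change of 0.14. The share of members called is near this background. Among the 3032 tested genes with a mean of 5 RPKM or more, 837 were called higher and 1435 lower, with a median log2 fold change of -0.24. Hspa2, Hspa4l, Hspa8, Hspa5, Hspa9 and Hspa4 lie in that range, where a fall was the more common call. Both libraries of one group lay outside those of the other for 89.9% of tested genes, 51.8% with the knockout higher and 38.0% with it lower, and for 8 of the 9 tested members, 5 higher and 3 lower, so such a separation is the rule here. Those shares cover tested genes only. Over all symbols, the median RPKM was 0.314 and 0.319 in the knockout libraries and 0.178 and 0.182 in the control libraries. The middle of all values, below the filter, thus lay higher in the knockout as well. Scaling the libraries to an equal RPKM sum gave 5657 higher and 1663 lower genes (77.3% of calls higher, against 58.7% as deposited), and scaling to an equal median gave 3045 and 3538 (46.3%). Leaving out knockout replicate 1 or 2 cut the genes tested to 7637 and 7642, since genes at 1 RPKM only in the knockout pair then fail the filter. Without control replicate 1 the lower genes numbered 1756, and without control replicate 2 they numbered 1763.

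**Figure D1:**
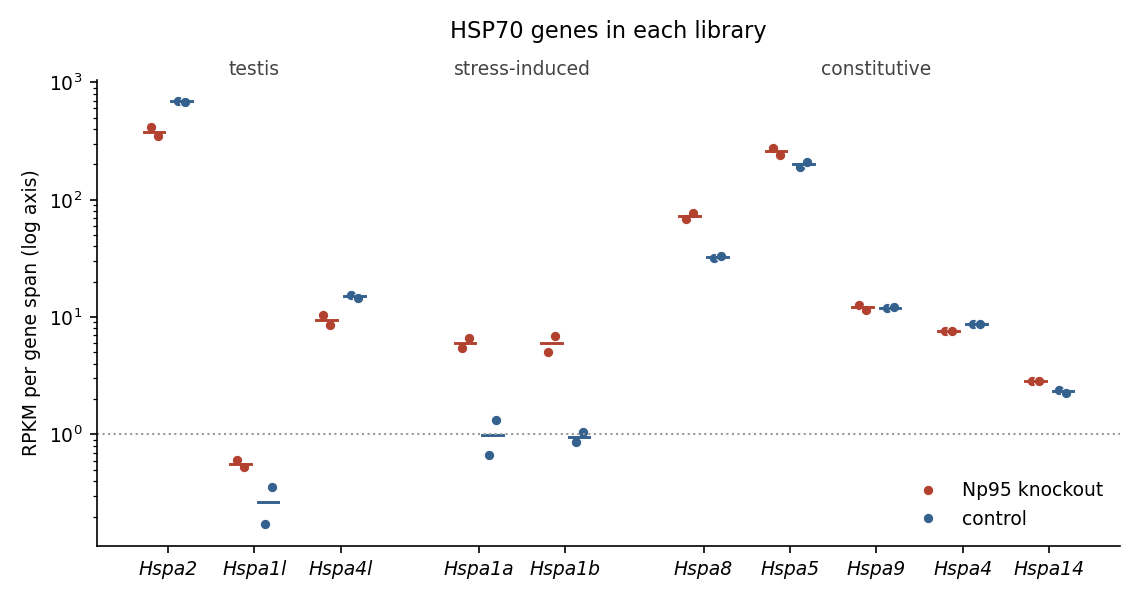
RPKM per gene span on a log axis for each HSP70 gene, with 1 point per library, Np95 knockout left of control, and a bar at the group mean; the dotted line is 1 RPKM. Hspa2 at 415 and 348 RPKM in the knockout lies below 693 and 682 RPKM in the control, while Hspa1a and Hspa1b lie near 6 RPKM in the knockout and near 1 RPKM in the control.

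Hspa2 was the most abundant member in every library. It had 415 and 348 RPKM in the knockout libraries and 693 and 682 RPKM in the control libraries, means of 381 ± 47.2 and 687 ± 7.83 RPKM (SD, n = 2 each). Both knockout libraries lay below both control libraries, and the log2 fold change was -0.85 (SE 0.17, 95% interval -1.29 to -0.42, limma adjusted p = 0.0075). Its place among all genes hardly moved: it ranked 5 and 6 in the knockout libraries and 5 and 7 in the control libraries. Quantile normalisation gives each rank the same value in every library and so returned a log2 difference of 0.05 (adjusted p = 0.57), the only scaling that turned the sign. Leaving out control replicate 1 or 2 kept the difference at -0.84 and -0.86 but ended the call (adjusted p = 0.11 and 0.1), in fits that assume the lone control library varies as the knockout libraries do. In bulk suspensions fewer cells of a type and less RNA per cell cannot be told apart.

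Listed pachytene spermatocyte markers fell with Hspa2, and further. Synaptonemal complex genes, listed among the meiotic partners of Hspa2, did not share a called fall. Sycp3 had 30.0 and 26.6 RPKM in the knockout and 27.1 and 26.9 RPKM in the control (limma adjusted p = 0.62). Sycp2 was not called (adjusted p = 0.072) and Sycp1 was called higher. All 14 listed pachytene spermatocyte markers were called lower as deposited, with a summed level of 592 and 393 RPKM in the knockout libraries and 2040 RPKM in each control library. The most abundant of them were Ybx2, a germ cell RNA-binding protein, at 179 and 138 RPKM in the knockout against 432 and 404 RPKM in the control, and the centrin Cetn1 at 129 and 73.5 against 562 and 592 RPKM. The 14 markers fell by 2.1-fold to 7.16-fold, each by more than the 1.8-fold of Hspa2; 12 of the 14 were called under quantile normalisation, where Ybx2 lost its call (-0.38, adjusted p = 0.053, against -1.4 as deposited). Spermatid markers, of which 7 of 16 were tested, were called lower for 6 and neither for 1, with sums of 125 and 80.2 RPKM in the knockout and 378 and 370 RPKM in the control. Their most abundant genes were the J-domain gene Dnajb3, at 98.2 and 60.1 RPKM in the knockout against 319 and 313 RPKM in the control, and Odf2 of the sperm tail, at 10.3 and 8.1 against 23.1 and 21.9 RPKM. Dnajb3 held most of each sum. The untested spermatid markers lay near or below 1 RPKM in every library. Of these, Prm1, Tnp1, Spaca1 and Tssk2 overlapped between the groups, while Prm2, Acrv1, Spaca3, Odf1 and Akap4 were lower in the knockout. In the opposite direction, 11 of 12 listed spermatogonial and preleptotene markers had both knockout libraries above both control libraries, with sums of 87.3 and 88.4 RPKM in the knockout and 31.1 and 35.3 RPKM in the control. Of the 8 tested 8 were called higher, but Dmrt1 and Ccnd2 were below 1 RPKM in both control libraries and entered the test only through the knockout. Separation with the knockout higher held for 51.8% of tested genes. Dazl led the list at 57.1 and 55.9 RPKM in the knockout against 20.4 and 22.3 RPKM in the control, with Uchl1 next at 11.6 in each knockout library against 4.9 and 6.64 RPKM. No marker of these lists was at 0 in every library, and the part of cell make-up in the change of Hspa2 was not tested.

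The proteins that work with Hspa2 in meiosis did not move as a block. Of 7 listed partners, all tested, 2 were called higher, 2 lower and 3 neither, with a median log2 fold change of -0.22. Shcbp1l, a mouse partner of Hspa2 on the meiotic spindle, had 10.7 and 7.47 RPKM in the knockout libraries and 25.9 and 24.2 RPKM in the control libraries (log2 fold change -1.39, limma adjusted p = 0.0019). Bag6, which in mouse germ cells keeps Hspa2 protein stable, was at 40.6 and 39.6 against 50.7 and 49.5 RPKM (-0.31, adjusted p = 0.037), but its sign turned to 0.09 at an equal RPKM sum and to 0.27 under quantile normalisation. Ccnb1, encoding cyclin B1, was 1.46-fold higher (adjusted p = 0.015) and the synaptonemal complex gene Sycp1 1.58-fold higher (adjusted p = 0.0039). Cdk1, the kinase that Hspa2 helps to assemble, had 4.07 and 3.27 RPKM in the knockout and 4.6 and 4.37 RPKM in the control and was not called (adjusted p = 0.1). Without control replicate 1 the calls of Ccnb1 (0.3, adjusted p = 0.12) and Bag6 (-0.3, adjusted p = 0.26) were lost, and without control replicate 2 that of Bag6 (-0.33, adjusted p = 0.21); Ccnb1 also lost its call at an equal median and under quantile normalisation. The count of lower partners was 4 without knockout replicate 1 and 1 without either control replicate, and that of higher partners was 1 without control replicate 1; at an equal RPKM sum the split was 3 higher and 1 lower, at an equal median 1 and 4, and under quantile normalisation 3 and 1.

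Hspa4l, an exchange factor of the HSP110 branch, was lower in the knockout as well. Its libraries had 10.4 and 8.65 RPKM in the knockout and 15.5 and 14.5 RPKM in the control, with no overlap. The log2 fold change was -0.61 (SE 0.12, 95% interval -0.91 to -0.31, limma adjusted p = 0.0067), and at an equal RPKM sum it was -0.23 and not called (adjusted p = 0.11). Hspa4, its constitutive relative with 66.0% identity of aligned coding bases, had 7.66 and 7.64 RPKM in the knockout and 8.76 and 8.74 RPKM in the control. That difference was not called (-0.17, 95% interval -0.38 to 0.03, adjusted p = 0.1), and its sign depended on scaling, with 0.2 at an equal RPKM sum (adjusted p = 0.078) and a call at -0.36 at an equal median (adjusted p = 0.012). Within each library the ratio of Hspa4l to Hspa4 was 1.36 and 1.13 in the knockout and 1.78 and 1.66 in the control, a quantity that multiplying a library by a constant leaves alone.

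Hspa1l, whose product is found in spermatids, was close to the limit of detection and went the other way. It had 0.601 and 0.527 RPKM in the knockout libraries and 0.171 and 0.358 RPKM in the control libraries, about 87 and 33 steps against 13 and 60. The groups did not overlap, but the gene was below the filter and has no call. In the fit without a filter its log2 difference was 0.31 (limma adjusted p = 0.06). Of its 50-base stretches, the length of a read, 71.4% also occur in the annotated locus Gm10501 and 9.57% in Hspa1a, its neighbour, so reads of these genes can be mistaken for each other.

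The stress-induced pair changed most. Hspa1a had 5.41 and 6.67 RPKM in the knockout libraries and 0.673 and 1.32 RPKM in the control libraries, about 336 and 180 steps against 22 and 95. Hspa1b had 5.06 and 6.9 RPKM in the knockout libraries and 0.855 and 1.04 RPKM in the control libraries, about 316 and 187 steps against 28 and 75. Every knockout library was several times above every control library for both genes. Both genes reached 1 RPKM in control replicate 2 but not in control replicate 1, and so needed the knockout libraries to enter the test. The log2 fold change was 1.83 for each, with SE 0.19 for Hspa1a (limma adjusted p = 0.0015) and SE 0.15 for Hspa1b (adjusted p = 0.0014). Across the 14 alternative settings the difference stayed between 1.59 and 2.54 for Hspa1a and between 1.64 and 2.53 for Hspa1b, called in each.

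The near equality of these rows has to be read with their sequences. The coding sequences of Hspa1a and Hspa1b are 99.4% identical, with 8 mismatches over 1926 aligned positions, and 58.8% of the 50-base stretches of the Hspa1a transcript occur in that of Hspa1b. How reads with several matches were assigned is not given in the sources used here, so each row is uncertain and their sum is the safer value. The summed level was 10.5 and 13.6 RPKM in the knockout libraries and 1.53 and 2.36 RPKM in the control libraries, 6.18-fold higher in the knockout.

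The copies also share their promoters. The 250 bases before each start site are shown for these genes because the pair moved together, and for Hspa5 and Hspa2, the most abundant members, as a contrast (RefSeq, GRCm38.p6, 5′ to 3′ on the gene's strand, matched by symbol for 8 of the 10 members). Capitals mark, in Hspa1a and Hspa1b, the fixed letters of the heat shock element core GAANNTTC and then a CCAAT box read on the other strand; in Hspa5 the fixed letters of the ER stress element; and in Hspa2 a CCAAT box on the other strand. Hspa1a lies at chr17:34972157-34972406 and Hspa1b at chr17:34959239-34959488, both on the minus strand, Hspa5 at chr2:34771840-34772089 and Hspa2 at chr12:76404120-76404369, both on the plus strand.
Hspa1a: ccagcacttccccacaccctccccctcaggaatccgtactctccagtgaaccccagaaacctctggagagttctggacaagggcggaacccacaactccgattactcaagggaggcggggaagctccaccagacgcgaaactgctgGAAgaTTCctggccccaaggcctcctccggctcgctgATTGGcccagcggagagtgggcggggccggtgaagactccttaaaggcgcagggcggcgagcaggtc
Hspa1b: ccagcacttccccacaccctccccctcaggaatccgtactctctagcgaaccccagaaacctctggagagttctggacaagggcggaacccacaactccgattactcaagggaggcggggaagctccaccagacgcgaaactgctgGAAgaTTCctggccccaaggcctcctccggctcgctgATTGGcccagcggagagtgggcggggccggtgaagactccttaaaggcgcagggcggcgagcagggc
Hspa5: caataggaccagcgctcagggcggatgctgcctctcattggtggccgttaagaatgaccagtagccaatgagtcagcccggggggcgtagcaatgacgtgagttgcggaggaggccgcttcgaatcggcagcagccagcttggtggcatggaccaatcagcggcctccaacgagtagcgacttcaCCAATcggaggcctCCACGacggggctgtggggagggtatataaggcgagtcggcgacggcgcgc
Hspa2: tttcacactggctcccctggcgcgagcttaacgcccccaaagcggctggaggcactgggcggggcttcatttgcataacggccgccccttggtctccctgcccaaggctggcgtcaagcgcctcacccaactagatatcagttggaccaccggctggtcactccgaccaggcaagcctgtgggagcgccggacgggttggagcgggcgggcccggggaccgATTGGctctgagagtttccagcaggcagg

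The windows of Hspa1a and Hspa1b differ at 3 of 250 positions. Each holds GAANNTTC 104 to 97 bases before the start and a CCAAT box 67 to 63 bases before it. All motifs were searched on both strands. GAANNTTC occurs in 6.69% of 32851 promoter windows of the same length and, among the 8 matched members, in Hspa1a and Hspa1b alone; its other arrangement, TTCNNGAA, occurs in 7.17% of windows and in 0 members. The ER stress element, CCAAT and CCACG with a spacer of fixed length between them, which overlaps the CCAAT box, occurs in 0.113% of windows and in Hspa5, 65 to 47 bases before the start. CCAAT occurs in 33.8% of windows and in 6 of the 8 members, in Hspa2 at 29 to 25 bases before the start. TATAAA (12.4% of windows) and TGACGTCA (1.55%), the cyclic AMP response element, occur in 0 of the 8 on these letters. The member windows held 9 to 34 CpG pairs each, 18 in Hspa2, 14 in Hspa1a, 15 in Hspa1b and 22 in Hspa5, against a median of 6 over all windows. The start sites of Hspa1a and Hspa1l lie 547 bases apart and point away from each other.

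The remaining genes of the heat shock response moved in both directions. Of 12 listed, 10 were tested, and 4 were called higher, 2 lower and 4 neither, with a median log2 fold change of 0.12; at an equal RPKM sum the split was 7 higher and 1 lower, and at an equal median 4 and 4. Hspb1, a small heat shock protein, had 24.1 and 29.2 RPKM in the knockout libraries and 5.49 and 5.93 RPKM in the control libraries, 4.67-fold higher (limma adjusted p = 0.0014). Hsp90ab1, the constitutive cytosolic HSP90, had 142 and 157 against 75.9 and 80.0 RPKM, 1.92-fold higher (adjusted p = 0.0023). Chordc1, an HSP90 cochaperone, was 1.66-fold higher (adjusted p = 0.0026). Hspb8 and Cryab, below the filter and untested, were 11.8-fold and 2.8-fold higher at levels under 1 RPKM. In all, both knockout libraries lay above both control libraries for 8 of the 12 listed, against 51.8% of tested genes. Hsf2, a heat shock factor with roles in mouse spermatogenesis, had 1.21 and 1.26 RPKM in the knockout and 0.558 and 0.6 RPKM in the control. It entered the test only through the knockout libraries, where it is high, so its place among the 4 higher genes was favoured by the filter, and its call was lost under quantile normalisation (0.16, adjusted p = 0.066).

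Other genes of that response fell or did not pass the test. Dnajb1, the J-domain partner induced along with Hspa1a by heat, had 39.9 and 32.8 RPKM in the knockout and 74.3 and 75.9 RPKM in the control (log2 fold change -1.03, limma adjusted p = 0.0021). Hsf5, a testis heat shock factor, was at 4.22 and 3.31 against 6.1 and 6.09 RPKM (-0.58, adjusted p = 0.0074; -0.24 and not called at an equal RPKM sum). Hsf1, the heat shock factor that activates Hspa1a and Hspa1b, had 2.32 and 2.44 RPKM in the knockout and 2.28 and 2.08 RPKM in the control and was not called (adjusted p = 0.34). Hsp90aa1, the inducible HSP90, was at 201 and 170 against 227 and 226 RPKM, also not called (adjusted p = 0.13). Hspa1a, Hspa1b and Hspb1 on the one hand and Dnajb1 on the other thus differed in direction in the same libraries.

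Genes that respond to the handling of tissue rose beside the stress-induced pair. Of 18 listed immediate early and dissociation genes, none of them a heat shock gene, 18 had both knockout libraries above both control libraries, with a summed level of 93.9 and 136 RPKM in the knockout libraries and 27.2 and 33.3 RPKM in the control libraries. Of the 14 tested, 14 were called higher, but 5 of them (Fos, Ier3, Dusp1, Btg2 and Klf6) were below 1 RPKM in both control libraries and entered the test only through the knockout, where they are high; the other 9 were all called. Folds of the tested members ran from 2.26 to 12.8. Separation with the knockout higher held for 51.8% of tested genes, and the 18 separated here include genes below the filter. Jund, an AP-1 subunit, led at 33.2 and 51.5 RPKM in the knockout against 7.99 and 9.98 RPKM in the control, followed by Ier2 at 10.6 and 16.3 against 3.48 and 5.19 RPKM. Knockout replicate 2 was the higher of its pair for the summed list, Hspa1a and Hspa1b, and also for Hspa8, Hspb1 and the Sertoli and peritubular sums. Fosb, Socs3 and Cebpd of the list, and the Leydig and macrophage sums, had the reverse order. The 5 genes that entered only through the knockout cannot enter the test when either knockout replicate is left out. The part of tissue handling in the level of Hspa1a and Hspa1b was not tested.

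Markers of somatic testis cells rose as well. Of the 17 Sertoli cell markers found in the table, 17 had both knockout libraries above both control libraries, with sums of 491 and 608 RPKM in the knockout and 164 and 193 RPKM in the control. Of the 16 tested, 16 were called higher (median log2 fold change 1.5), among them 3 (Wt1, Gata4 and Trf) that were below 1 RPKM in both control libraries and entered the test only through the knockout. Aard, at 139 and 166 RPKM in the knockout against 49.7 and 56.3 RPKM in the control, and Clu, at 85.7 and 105 against 25.9 and 31.9 RPKM, were the most abundant. Over all tested genes, 51.8% were separated with the knockout higher. Of 8 Leydig cell markers 7 were so separated; of the 7 tested 6 were called higher, 1 of them below 1 RPKM in both control libraries, and 1 neither, with sums of 64.8 and 55.7 RPKM in the knockout and 20.3 RPKM in each control library; Insl3 had 45.8 and 31.6 against 11.6 and 13.0 RPKM and Star 3.22 and 5.47 against 2.62 and 1.81 RPKM, a call lost without a filter, at an equal median, under quantile normalisation, without knockout replicate 2 (0.41, adjusted p = 0.12) and without control replicate 2 (0.53, adjusted p = 0.15). Of 8 peritubular markers 7 were so separated; of the 5 tested 5 were called higher, 1 of them below 1 RPKM in both control libraries, sums being 16.3 and 25.1 RPKM in the knockout and 5.25 and 5.21 RPKM in the control, led by Col1a1 (4.82 and 8.91 against 1.13 and 1.23 RPKM) and Col1a2 (3.81 and 5.28 against 1.13 and 1.04 RPKM).

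Macrophage and endothelial markers were followed in the same way. Of 10 listed macrophage markers 9 had both knockout libraries above both control libraries, and of the 5 tested 5 were called higher. Of these, 2 were below 1 RPKM in both control libraries and cannot enter the test when either knockout replicate is left out. The sums were 16.8 and 13.2 RPKM in the knockout and 5.51 and 6.66 RPKM in the control, led by C1qa (4.7 and 2.49 against 1.09 and 1.81 RPKM) and C1qc (3.7 and 3.33 against 1.07 and 1.24 RPKM). C1qa lost its call without a filter (0.88, adjusted p = 0.09), at an equal median (0.69, adjusted p = 0.073), under quantile normalisation (0.67, adjusted p = 0.11), without knockout replicate 1 (0.53, adjusted p = 0.088) and without control replicate 1 (0.67, adjusted p = 0.12). None of 8 endothelial markers was tested, with sums of 0.663 and 0.823 RPKM in the knockout and 0.196 and 0.348 RPKM in the control, the most abundant being Egfl7 (0.397 and 0.403 against 0.111 and 0.219 RPKM) and Cdh5 (0.189 and 0.217 against 0.048 and 0.0912 RPKM). No marker of these lists was at 0 in every library. Over all tested genes, 51.8% were separated with the knockout higher. Genes below the filter enter the counts of separated markers, and the median RPKM of all genes was itself higher in the knockout libraries. Whether RNA of such cells carries part of the change in Hspa1a, Hspa1b, Hspa8 or Hspa5 was not tested.

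Hspa8, the general cytosolic HSP70 that also uncoats clathrin vesicles, rose under every scaling. It had 68.2 and 76.8 RPKM in the knockout libraries and 31.7 and 33.1 RPKM in the control libraries, means of 72.5 ± 6.11 and 32.4 ± 0.98 RPKM (SD, n = 2 each). The groups lay far apart beside the spread within them, and the log2 fold change was 1.13 (SE 0.12, 95% interval 0.84 to 1.43, limma adjusted p = 0.0015), called in all 14 alternatives with values from 0.94 to 1.87. Its rank among all genes was 104 and 72 in the knockout libraries and 491 and 481 in the control libraries. Of the 50-base stretches of its transcript 74.8% also occur in 13 other annotated genes, among them Gm15459 (70.0%) and Gm26825 (69.0%), so reads of Hspa8 and of these loci may have been exchanged.

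The balance between the cytosolic members shifted within each library. The ratio of Hspa2 to Hspa8 was 6.08 and 4.53 in the knockout libraries and 21.8 and 20.6 in the control libraries, 3.99-fold lower in the knockout. The ratio of Hspa2 to Hspa5 was 1.5 and 1.46 in the knockout libraries and 3.62 and 3.26 in the control libraries, 2.33-fold lower. Both ratios separated the groups, and neither depends on a linear scaling of the libraries. The ratio of Hspa1a to Hspa8 was 0.0793 and 0.0868 in the knockout and 0.0212 and 0.0399 in the control, 2.72-fold higher, and that of Hspa8 to the mitochondrial Hspa9 was 5.38 and 6.64 against 2.66 and 2.75, 2.22-fold higher. These ratios show unequal change, and each is set beside its spread without a test, since 2 against 2 libraries cannot reach the threshold by permutation.

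Hspa5, the HSP70 of the ER and a sensor of unfolded protein there, was the second most abundant member. Its libraries had 277 and 239 RPKM in the knockout and 192 and 209 RPKM in the control. Both knockout libraries were above both control libraries, but the log2 fold change of 0.36 was not called (SE 0.15, 95% interval -0.03 to 0.75, limma adjusted p = 0.082). It was called at an equal RPKM sum (0.78), under quantile normalisation (1.41) and without the variance trend (0.36, adjusted p = 0.031). It was not called without a filter (adjusted p = 0.19), at an equal median (0.17) or with the replicate block (adjusted p = 0.2). With 1 library left out the difference was 0.25 to 0.47. The call then depended on which group was left with 1 library, since the spread came from the other group alone. The Hspa5 gene overlaps Rabepk by 1921 bases in RefSeq's annotation, and the library kit does not mark strand. Rabepk had 2.33 and 1.93 RPKM in the knockout against 5.83 and 6.29 RPKM in the control.

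The tested ER partners of Hspa5 and genes of the unfolded protein response showed no common direction. Of 20 listed, 16 were tested, and 3 were called higher, 4 lower and 9 neither, with a median log2 fold change of 0.06. At an equal RPKM sum the split was 12 higher and 2 lower, at an equal median 2 and 5, and under quantile normalisation 9 and 3. Both knockout libraries lay above both control libraries for 11 of the 20 listed, against 51.8% of tested genes. The untested genes were below 1 RPKM in every library. Among them Atf6 was 2.1-fold, Ern1 4.78-fold and Eif2ak3 4.97-fold higher, while Sil1 was 1.67-fold lower. Pdia4, a disulfide isomerase, was 2.71-fold higher (limma adjusted p = 0.0014), Xbp1, the spliced transcription factor of the response, 2.16-fold higher (adjusted p = 0.0016), and the lectin chaperone Canx 1.35-fold higher (adjusted p = 0.012). Sdf2l1, a cofactor of Hspa5, had 34.9 and 27.6 RPKM in the knockout and 79.2 and 82.5 RPKM in the control (-1.35, adjusted p = 0.0015), and Ddit3, the death-linked factor CHOP, was 2.04-fold lower (adjusted p = 0.0014). Herpud1, of ER-associated degradation, was 1.66-fold lower (adjusted p = 0.0059), and the ER stress gene Creld2 had a log2 difference of -0.27 (adjusted p = 0.046), which turned to 0.12 at an equal RPKM sum and 0.09 under quantile normalisation. The ER HSP90 Hsp90b1 had 62.2 and 57.7 RPKM in the knockout against 55.3 and 53.2 RPKM in the control and was not called (adjusted p = 0.29), nor was Calr at 192 and 179 against 177 RPKM in each control library (adjusted p = 0.68). Canx lost its call at an equal median, without control replicate 1 (0.43, adjusted p = 0.076) and without control replicate 2 (0.37, adjusted p = 0.11). Creld2 lost it without knockout replicate 2 (-0.22, adjusted p = 0.057), control replicate 1 (-0.26, adjusted p = 0.26) or control replicate 2 (-0.29, adjusted p = 0.21), and Herpud1 at an equal RPKM sum (-0.27, adjusted p = 0.066).

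Hspa9, which pulls proteins into mitochondria and helps to make iron-sulfur clusters, was level between groups in the values as deposited. It had 12.7 and 11.6 RPKM in the knockout libraries and 11.9 and 12.1 RPKM in the control libraries, and the groups overlapped. The log2 difference was 0.01 (SE 0.09, 95% interval -0.22 to 0.25, limma adjusted p = 0.91). Its sign turned at an equal median (-0.18) and without knockout replicate 1 (-0.05), and it was called at an equal RPKM sum (0.4, adjusted p = 0.0089).

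Its mitochondrial partners were called in both directions. Of 12 listed and tested, 5 were called higher, 3 lower and 4 neither (median -0.06); the split was 6 higher and 0 lower at an equal RPKM sum and 5 and 6 at an equal median, and the lower count was 5 without knockout replicate 1 and 1 without either control replicate. The folding chamber gene Hspd1 had 6.9 and 7.77 RPKM in the knockout and 2.0 and 1.98 RPKM in the control, 3.68-fold higher (limma adjusted p = 0.0014), and its lid Hspe1 was 2.18-fold higher (adjusted p = 0.0019). The protease Lonp1 was 2.57-fold higher (adjusted p = 0.0014), and the J-domain gene Dnaja3 1.59-fold higher (adjusted p = 0.0028), as was the exchange factor Grpel2 (adjusted p = 0.0049). Grpel1, the other exchange factor of Hspa9, was 1.4-fold lower (adjusted p = 0.011), the import anchor Timm44 1.38-fold lower (adjusted p = 0.013) and the HSP90 relative Trap1 1.36-fold lower (adjusted p = 0.011). Each of the 3 lower genes lost its call at an equal RPKM sum. Under quantile normalisation Grpel1 (-0.28, adjusted p = 0.053) and Grpel2 (0.13, adjusted p = 0.13) lost theirs. Without control replicate 1 the calls of Timm44 (-0.31, adjusted p = 0.12) and Trap1 (-0.39, adjusted p = 0.066) were lost, and without control replicate 2 those of Grpel1 (-0.35, adjusted p = 0.1) and Trap1 (-0.31, adjusted p = 0.11).

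Hspa14, the HSP70 of the ribosome-associated complex, had 2.88 and 2.83 RPKM in the knockout libraries and 2.41 and 2.25 RPKM in the control libraries. The groups did not overlap and the log2 fold change was 0.21 (SE 0.07, 95% interval 0.02 to 0.4, limma adjusted p = 0.048). The call was lost in 9 of 13 alternatives, among them the equal median, where the difference was 0.02, quantile normalisation, where it was 0.0, and the omission of any 1 library (0.18 to 0.25). Dnajc2, its partner in that complex, moved the other way at 2.03 and 1.84 RPKM in the knockout against 2.67 and 2.99 RPKM in the control (-0.38, adjusted p = 0.011), a gene named after its values were seen.

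**Figure D2:**
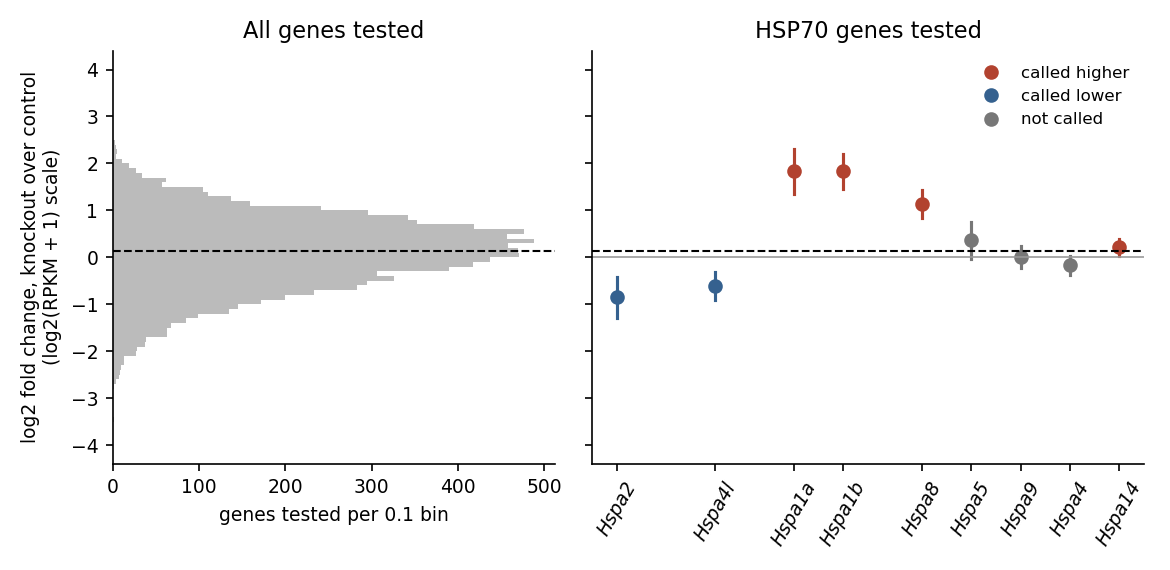
Left, number of tested genes per bin of log2 fold change (knockout over control); right, log2 fold change of each tested HSP70 gene with its 95% interval, coloured by call, the dashed line being the median of all tested genes, 0.14. Hspa1a and Hspa1b stand at 1.83 and Hspa8 at 1.13, while Hspa2 stands at -0.85, a value whose sign turns under quantile normalisation, and Hspa4l at -0.61.

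Cofactors of the cytosolic HSP70 proteins were called in both directions. Of 12 listed and tested, 3 were higher, 6 lower and 3 neither, with a median log2 fold change of -0.22; at an equal RPKM sum the split was 5 higher and 2 lower, under quantile normalisation 5 and 4, and the lower count was 3 without control replicate 1 and 2 without control replicate 2. Bag5, an exchange factor, had 24.8 and 18.8 RPKM in the knockout and 62.7 and 60.6 RPKM in the control (-1.47, limma adjusted p = 0.0015). Bag3, which links HSP70 to autophagy and is a target of heat shock factor 1, was at 1.4 and 1.03 against 3.22 and 2.9 RPKM (-0.88, adjusted p = 0.0019). Bag2, an inhibitor of the ubiquitin ligase Stub1, was 2.27-fold higher (adjusted p = 0.0033) and Bag4 1.7-fold higher (adjusted p = 0.0025). The HSP110 gene Hsph1 was 1.36-fold higher (adjusted p = 0.013).

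Outside the 10 members, Hsph1 was also 1 of 5 listed genes of the wider HSP70 and HSP110 families. Of these, 3 were tested: Hsph1 and Hspa13, a microsomal HSP70 at 3.39 and 3.62 RPKM in the knockout against 2.39 and 2.51 RPKM in the control (1.43-fold higher, limma adjusted p = 0.0075), were called higher and Hyou1 was not called. Both calls were lost at an equal median, under quantile normalisation, without control replicate 1 (0.35 for Hsph1, adjusted p = 0.1, and 0.36 for Hspa13, adjusted p = 0.079) and without control replicate 2 (0.36, adjusted p = 0.089, and 0.41, adjusted p = 0.054).

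**Figure D3:**
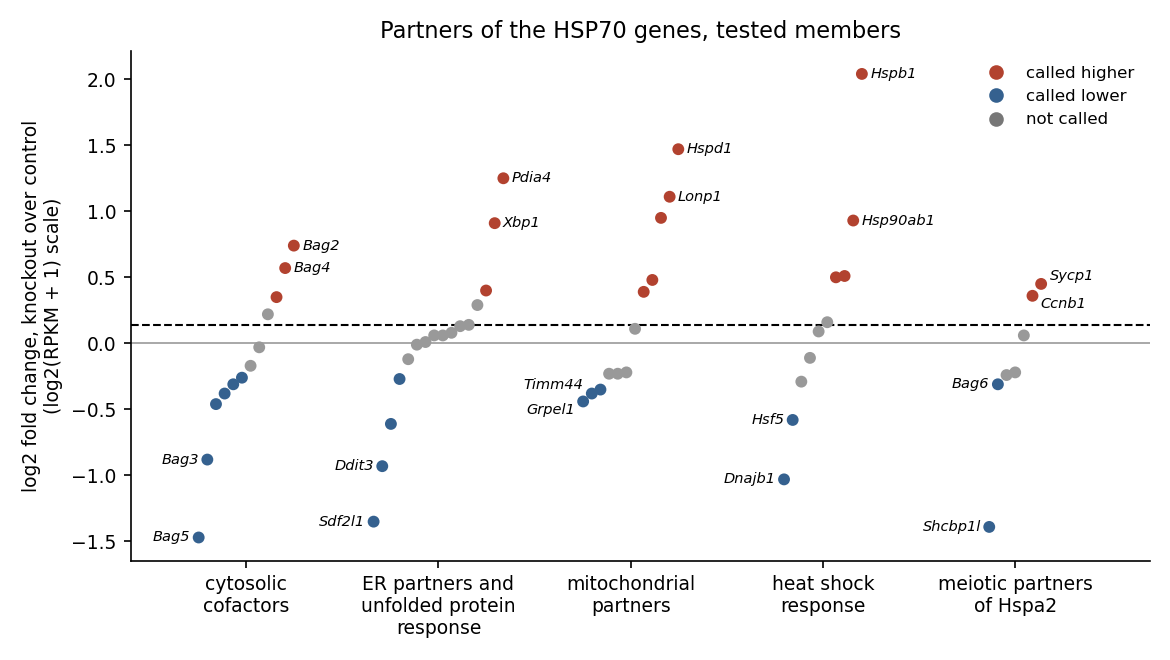
Log2 fold change (knockout over control, log2(RPKM + 1) scale) of each tested gene in 5 lists of HSP70 partners, ordered within its list and coloured by call, with the outermost genes named; the dashed line is the median of all tested genes, 0.14. Each list holds genes above and below 0, from Bag5 at -1.47 to Hspb1 at 2.04, in the values as deposited.

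Rescaled to transcript length, for a comparison of levels between genes, the family total was differently made up. The rescaling takes all counted reads as coming from the exons of 1 chosen transcript per gene, which was not tested. It multiplied the RPKM by 0.94 for Hspa1a and by up to 13.35 for Hspa14. The summed level was 1340 and 1190 RPKM in the knockout libraries and 1500 and 1510 RPKM in the control libraries. Its direction turned with the scaling: set against each library's own RPKM sum it came to 1.84% and 1.7% in the knockout libraries and 1.59% and 1.56% in the control libraries. Hspa2 made up 38.3% and 36.1% of it in the knockout and 57.3% and 55.9% in the control, means of 37.2% ± 1.55 and 56.6% ± 0.982 (SD, n = 2 each). Hspa5 made up 35.1% and 34.0% in the knockout and 21.7% and 23.5% in the control, and Hspa8 8.33% and 10.5% against 3.47% and 3.6%. The stress-induced pair stayed small, at 0.756% and 1.1% in the knockout and 0.0993% and 0.151% in the control. The testis members together held 42.7% and 40.2% in the knockout against 63.0% and 61.2% in the control. The groups did not overlap in any of these shares. Because shares add up to 100%, a smaller share of Hspa2 raises the others, so they are a description of make-up and not further evidence of change.

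The order of levels per transcript length, which rests on the same assumption about reads, also differed. In the knockout libraries Hspa2 (514 and 432 RPKM) and Hspa5 (471 and 406 RPKM) overlapped at the top and Hspa8 (112 and 126 RPKM) came next. In the control libraries Hspa2 (859 and 845 RPKM) stood clear of Hspa5 (326 and 356 RPKM), and Hspa8 (52.1 and 54.3 RPKM) came after Hspa4l, Hspa4 and Hspa9. Hspa9 at 70.5 and 64.3 RPKM in the knockout and Hspa4 at 67.5 and 67.3 RPKM could not be told apart there, and in the control Hspa4l at 84.6 and 79.0 RPKM stood just above Hspa4 at 77.2 and 77.0 RPKM. Hspa14 had 38.4 and 37.8 RPKM in the knockout and 32.1 and 30.0 RPKM in the control, and Hspa1a, Hspa1b and Hspa1l lay below 7 RPKM in every library. The converted level of Hspa4l rests on a long annotated transcript of 9479 bases and would be higher on a shorter one.

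**Figure D4:**
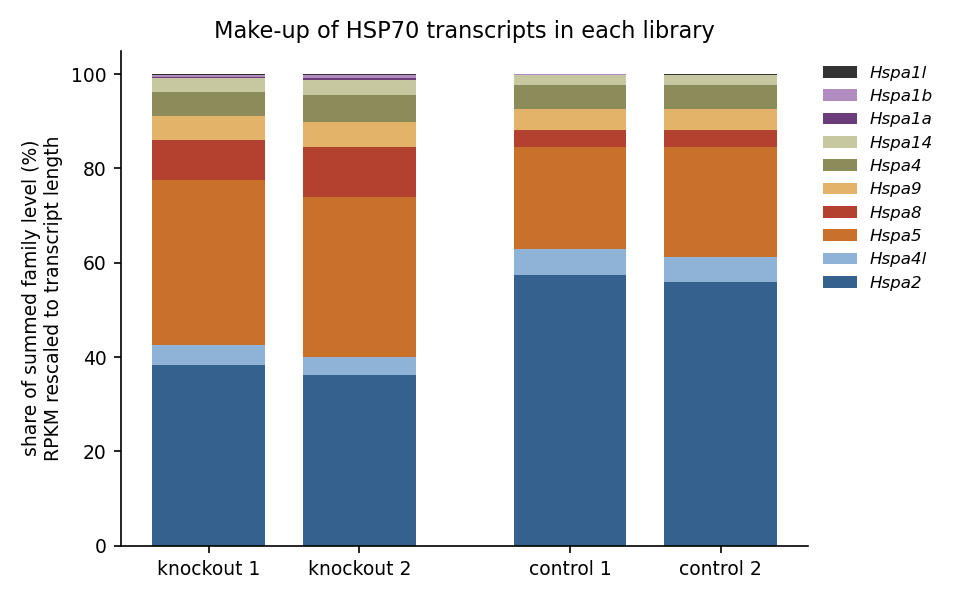
Share of each HSP70 gene in the summed family level per library, in percent of RPKM rescaled to transcript length, knockout libraries left of control libraries. Hspa2 takes 38.3% and 36.1% in the knockout and 57.3% and 55.9% in the control, and Hspa5 and Hspa8 take larger shares in the knockout.

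How far the libraries are scaled to each other sets the level of all these differences. The RPKM values of a library summed to 72800 and 70100 in the knockout and to 94200 and 96600 in the control. The median log2 fold change of all tested genes was 0.14 as deposited, 0.46 at an equal RPKM sum, -0.05 at an equal median and 0.01 under quantile normalisation. Relative to that median, Hspa1a lay at 1.69, 1.66, 1.69 and 1.66 and Hspa8 at 0.99, 1.08, 0.99 and 1.86 in the same order of scalings. Hspa4l lay at -0.75, -0.69, -0.75 and -0.43. Hspa2 lay at -0.99, -0.9 and -1.0 under the first 3 scalings and at 0.04 under quantile normalisation.

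**Figure D5:**
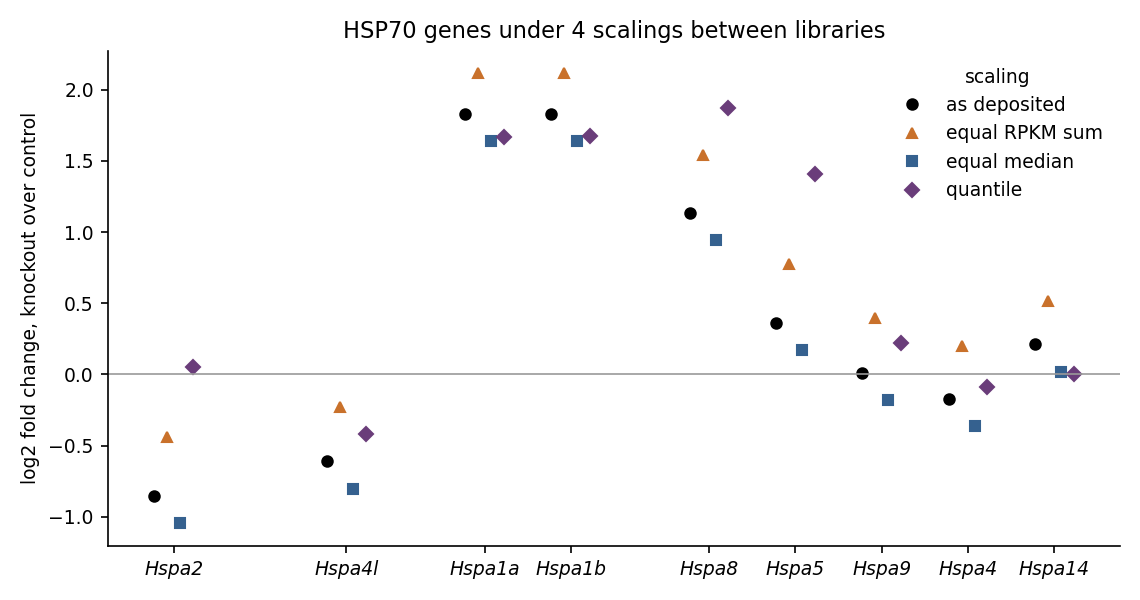
Log2 fold change (knockout over control) of the 9 tested HSP70 genes under 4 scalings between libraries. Hspa1a, Hspa1b and Hspa8 stay above 0.9 under each, Hspa4l stays below 0, Hspa2 is below 0 except under quantile normalisation (0.05), and Hspa9 and Hspa4 change sign with the scaling.

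The genes whose profile over the 4 libraries was most like that of Hspa2, by Euclidean distance of centred log2(RPKM + 1) values, were Cep72 (distance 0.0124), Gmcl1 (0.0168), Entpd6 (0.0183), Alx1 (0.0327) and Radil (0.0353). Cep72, a centrosomal protein, had 5.01 and 4.03 RPKM in the knockout and 9.09 and 8.95 RPKM in the control. Those most like Hspa1a were Peg3os (0.0643), Trim47 (0.0677), Mesdc1 (0.0892), Rhob (0.101) and Samd1 (0.125). Rhob, an immediate early small GTPase, had 38.8 and 50.2 RPKM in the knockout and 9.74 and 14.8 RPKM in the control. With 4 libraries in 2 groups a close profile says little more than a like size of change, and all 10 genes were called in the direction of the gene they resemble.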

How the data were processed

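Poly(A) RNA of 2 Np95 knockout and 2 control libraries was read as 50-base pairs, per the labels' protocols. The deposited table gives RPKM values made by the authors, 1 column per library and 24444 rows; Bowtie2 and the build mm9 appear in the submitters' processing notes. The counting program, and what it did with reads of several matches, is not given in the sources used here. Of the low RPKM values found among 19385 genes, 65.9% to 69.9% were whole multiples of 1 step, within 0.05, when multiplied by gene span. By exon length 9.99% to 10.4% were. In a separate set of the lowest values over 23396 genes, 60.0% to 61.7% were whole by gene span, and most of those multiples were even (70.4% to 72.9%). Because the rest did not come out whole, no count test was run. Rows with a date for a symbol (27) and lower rows of a repeated symbol (29) were left out, and groups were taken from the sample titles.

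Genes with 1 RPKM or more in at least 2 libraries were tested on log2(RPKM + 1) in R 4.3.3 by limma 3.58.1, two-sided, allowing the variance to follow the mean. The fit was tested on simulated data. Alternative fits left out the filter or raised it to 5 RPKM, used pseudocounts of 0.1 and 0.5, scaled the libraries in 3 other ways, dropped the variance trend, added a replicate block, omitted each library in turn or summed the rows that share a symbol. Transcript lengths and sequences came from GENCODE vM21 and promoters from RefSeq (GRCm38.p6), with searches in Python 3.11.15 and Biopython 1.88; mm9 coordinates were not used. Members and gene lists were chosen with earlier results of these data known. The rule names all members, Uhrf1, up to 4 called genes per partner list with the smallest p and any needed for a count of 5 or fewer, the 2 most abundant genes per marker list, and the 5 nearest profiles of Hspa2 and Hspa1a. Genes outside it (Cdk1, Sycp2, Sycp3, Hsf1, Hsp90aa1, Hsp90b1, Calr, Hyou1, Dnajc2, Rabepk, Fosb, Socs3, Cebpd and the untested spermatid markers) were chosen after their values were seen. So were the untested genes of the ER and heat shock lists. Same-numbered libraries share only a number (see the closing section).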

Additional observations from a re-analysis of the deposited data

How the results depend on the processing

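Hspa1a, Hspa1b and Hspa8 kept direction and call in all 14 alternatives, 3 of the 9 tested members. Higher genes numbered 7370 without a filter, 1080 with a filter at 5 RPKM and 2321 to 3115 with 1 library left out; lower genes numbered 1629 with the filter at 5 RPKM, 1663 at an equal RPKM sum and 1756 to 2871 with 1 library left out. Fewer or more genes entered these filters. Members called lower numbered 1 without a filter, at an equal RPKM sum and under quantile normalisation, and 1 to 2 with 1 library left out. Hspa2 was at -0.85 without a filter (adjusted p = 0.077), 0.05 under quantile normalisation and -0.98 to -0.73 with 1 library left out. Hspa4l was at -0.23 at an equal RPKM sum. Hspa5 was at 0.78 at an equal RPKM sum, 1.41 under quantile normalisation, 0.36 without the trend and 0.25 to 0.47 with 1 library left out. Hspa9 was at 0.4 at an equal RPKM sum, -0.18 at an equal median and -0.05 to 0.07 with 1 library left out. Hspa4 was at 0.2 at an equal RPKM sum and -0.36 at an equal median. Hspa14 was at 0.21 without a filter (adjusted p = 0.053), without the trend and with the replicate block (adjusted p = 0.069), 0.02 at an equal median, 0.0 under quantile normalisation and 0.18 to 0.25 with 1 library left out. Bag6 turned to 0.09 at an equal RPKM sum and 0.27 under quantile normalisation, and Creld2 to 0.12 and 0.09. The share of Hspa2 in the family was 50.3% in the knockout and 71.6% in the control when RPKM were summed as deposited, by gene span. The cause of the changes under equal sum and equal median was not tested.

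The replicate block gave 3868 higher and 2721 lower genes, and of the members it ended the call of Hspa14 alone. It also ended those of Bag6 (-0.31, adjusted p = 0.082), leaving 1 lower meiotic partner, and Creld2 (-0.27, adjusted p = 0.072). The deviations of same-numbered libraries correlated at 0.109 over only 2 pairs, so the samples share a number and nothing more is known of a pairing. Depth limits Hspa1l, at 13 to 87 steps per library. It also limits Hspa1a and Hspa1b in control replicate 1, at 22 and 28 steps, and so the size of their folds.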
